A study of Mus musculus with 8 samples.

Results

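Branched-chain amino acid breakdown was followed through 10 genes that carry leucine, isoleucine and valine from the amino acid to mitochondrial acyl-CoA and 3-hydroxyacid steps: the aminotransferases Bcat1 and Bcat2, the dehydrogenase complex subunits Bckdha, Bckdhb and Dbt, its kinase Bckdk, the acyl-CoA dehydrogenases Ivd and Acadsb, and the valine enzymes Hibch and Hibadh. The members are those whose symbol in the platform annotation matched exactly, which found all 10, with 16 probe sets, of 18193 genes with their own symbol on the array. Where a gene has several probe sets, the brightest on average stands for it, and the others of a member are given beside it. The RNA came from gonadal white fat of mice aged 10 weeks on a Swiss background. The 4 control arrays, labelled wild type, carry the replicate numbers 1, 2, 3 and 4, and the 4 knockout arrays, labelled aP2-Pex5 -/-, the numbers 6, 8, 9 and 10. All mice were kept under normal conditions with no treatment. Pex5 is the receptor that carries enzymes into peroxisomes, and the submitters state that the knockouts lack working peroxisomes in fat. The deletion is named for the aP2 promoter, that of Fabp4, which works in adipocytes and is known to work in some other cells, macrophages among them. Nothing in the labels ties each array to its own mouse, so the p-values rest on the spread among these arrays, which may be technical. The tissue is whole fat, where fewer cells of a type and less RNA per cell cannot be told apart.

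White fat takes up and oxidises branched-chain amino acids, and differentiated adipocytes use their carbon for lipid synthesis. An aminotransferase first moves the amino group to 2-oxoglutarate, in the cytosol by Bcat1 or in mitochondria by Bcat2, the isoform typical of fat. The branched-chain ketoacid dehydrogenase complex then removes a carbon dioxide irreversibly; it is built from E1 (Bckdha with Bckdhb), E2 (Dbt) and E3, and Bckdk switches it off by phosphorylating E1. Below the complex the arms part: leucine goes by Ivd to acetyl-CoA and acetoacetate, isoleucine by Acadsb to acetyl-CoA and propionyl-CoA, and valine by Hibch and Hibadh to propionyl-CoA.

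The data show an aminotransferase that leaned higher in knockout, a complex subunit that lay slightly lower, and 8 members with differences of at most 0.22 on the log2 scale and intervals that include 0. Bcat1 read higher in knockout by 0.99 log2 units (95% interval 0.22 to 1.76). Dbt read lower by 0.21 (interval of the difference -0.38 to -0.05). No member passed the test: 0 of 10 had an adjusted p under 0.05 in limma, which pools the spread over all genes, and each had 0.999; over all genes 0% passed (0 of 18193). At an unadjusted p under 0.05 there were 2 members, Bcat1 and Dbt, where 2.56% of all genes lay; a plain test per gene also called 0 genes and put 2.81% of them under that level, with 3 members among them, Bckdha beside Bcat1 and Dbt. Of the members 3 were higher and 7 lower, where 53.3% of all genes were lower, and their median difference of -0.02 stands beside -0.01 over all genes. The median distance from a member's difference to either end of its unadjusted 95% interval was 0.24. By that interval alone, a difference up to that size in a typical member could not be told from 0. The adjusted test asked for more: the interval of Bcat1, at 0.99, left out 0 and it still did not pass.

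Because Bcat1 was the member that differed most between arrays, the 250 bases before its annotated starts are shown, with those of Hibadh, the member that varied least, for contrast. They come from RefSeq on GRCm38.p6 and read 5′ to 3′ along the gene's strand. Capitals mark letters of 3 motifs searched on both strands: CACGTG, the E-box bound by Myc family factors; CCAAT, which reads ATTGG on the other strand, bound by NF-Y; and AGGTCA, which reads TGACCT on the other strand, an element that nuclear receptors bind. The outer Bcat1 window is chr6:145076158-145076407 (minus strand), the inner one chr6:145048813-145049062 (minus strand) inside the span of the gene, and the Hibadh window chr6:52640301-52640550 (minus strand).
Bcat1 outer start: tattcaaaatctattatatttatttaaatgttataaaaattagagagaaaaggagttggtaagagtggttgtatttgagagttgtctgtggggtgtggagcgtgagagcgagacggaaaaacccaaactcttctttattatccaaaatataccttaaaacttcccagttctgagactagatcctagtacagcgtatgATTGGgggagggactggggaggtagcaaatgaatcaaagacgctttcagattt
Bcat1 inner start: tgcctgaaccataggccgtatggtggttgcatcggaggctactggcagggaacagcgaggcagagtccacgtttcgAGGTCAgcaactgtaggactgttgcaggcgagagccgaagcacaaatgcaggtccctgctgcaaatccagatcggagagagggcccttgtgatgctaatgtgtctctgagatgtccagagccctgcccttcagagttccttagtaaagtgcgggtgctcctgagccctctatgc
Hibadh: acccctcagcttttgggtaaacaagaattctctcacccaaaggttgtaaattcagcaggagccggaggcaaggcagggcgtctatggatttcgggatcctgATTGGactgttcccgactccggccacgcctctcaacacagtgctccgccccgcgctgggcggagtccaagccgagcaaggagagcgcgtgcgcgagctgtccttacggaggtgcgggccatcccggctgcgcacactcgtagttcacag
The outer Bcat1 window had a GC content of 37.6% and held CCAAT in its reverse form, the inner one had 56.4% and held AGGTCA, and the Hibadh window had 60.8% and held CCAAT in its reverse form. The promoter table listed 9 of the members with 12 windows. CACGTG was in 0 of those 12 windows and in 6.02% of the 32851 windows of all genes, CCAAT in 5 of 12 and 33.8%, and AGGTCA in 2 of 12 and 14%. These matches describe letters only. Which start the probe sets report was not analysed here.

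Bcat1 and Bcat2 carry out the same reaction in different compartments, and they lay differently over the arrays. Bcat1 (probe set 1450871_a_at, chromosome 6, 144993835 to 145076157 on GRCm38.p6) read 8.15, 7.88, 7.12 and 8.41 in controls 1 to 4 and 8.53, 9.05, 8.37 and 9.59 in knockouts 6, 8, 9 and 10, on the log2 scale. Knockout 10 was highest and control 3 lowest, and knockout 9 lay just under control 4, so the groups overlapped by that pair of arrays. Controls averaged 7.89 ± 0.56 and knockouts 8.88 ± 0.55 (SD, n = 4 each), a ratio of 1.99 (95% interval 1.17 to 3.39). The two-sided exact permutation p over the 70 arrangements was 0.0571 (0.190 adjusted over the 10 members), where the smallest possible is 0.0286, and the unadjusted limma p was 0.0173.

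The other Bcat1 probe sets pointed the same way. Probe set 1430111_a_at read 7.52, 7.67, 7.04 and 7.70 in controls and 7.9999, 8.20, 7.73 and 8.87 in knockouts. Every knockout array lay above every control array, by a narrow margin between control 4 and knockout 9. The difference was 0.72 (95% interval 0.16 to 1.28; exact permutation p = 0.0286; limma p = 0.0174, adjusted 0.999 over all probe sets). Of the members' 16 probe sets 3 had an unadjusted limma p under 0.05, where 2.53% of all probe sets did, and 0 passed after adjustment. Groups did not overlap in 2 of the 16, 1430111_a_at and that of Dbt. Over all genes, by their brightest probe set, the share was 1.7%, and the share over all probe sets was not counted. Probe set 1455699_at, the dimmest of the 3, read 5.72, 6.05, 5.90 and 6.54 in controls and 5.98, 6.75, 6.29 and 7.12 in knockouts. Here the groups overlapped widely, at a difference of 0.48 (interval -0.11 to 1.08; exact permutation p = 0.171). In all 3 probe sets knockout 10 was the highest array and knockout 8 the next.

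**Figure D1:**
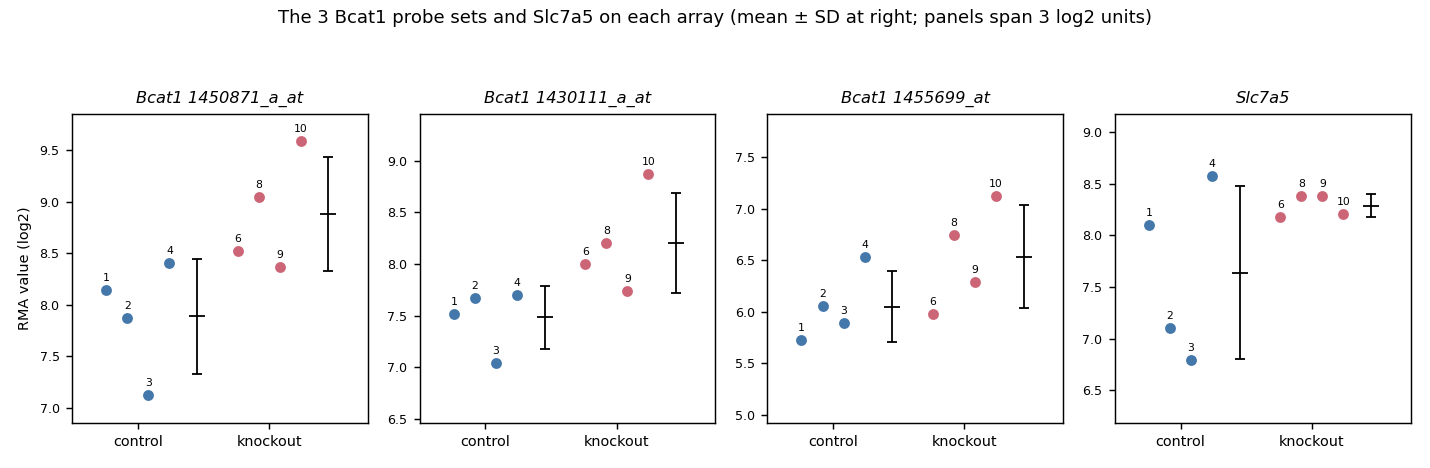
RMA values (log2 scale, y axis) of the 3 Bcat1 probe sets and of Slc7a5 on each array by group; points are arrays with their replicate numbers, and the bar at the right of each group is the mean ± SD (n = 4). Knockout 10 is highest in each Bcat1 panel, control 3 is lowest in 2 of them, and in 1430111_a_at every knockout array lies above 7.70, the highest control.

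The Bcat1 difference was in the same direction in each fit that left out an array, from 0.74 without control 3 to 1.17 without control 4. The arrays form 2 sets by the lower quartile of their values, and the difference was 0.78 among controls 1 and 2 and knockouts 6 and 8, and 1.21 among controls 3 and 4 and knockouts 9 and 10. These sets are also the first 4 and the last 4 samples in the order listed. Whether that order marks a processing batch is not stated. Without controls 1 and 4 and knockout 9, whose 3′ to 5′ difference on the pyruvate carboxylase control probe sets was 3.97 to 4.83 against 1.59 to 2.10 on the others, it was 1.55 (limma adjusted p = 0.123, the smallest over its alternatives, which reached 1). Of the 6 markers listed for ovary or uterus, 4 were higher in knockout, by 0.11, 0.16, 0.52 and, in the oestrogen-regulated gene Greb1, 1.76. The remaining differences were -0.07 and -0.08. The mean level of the list ran from 5.89 to 6.80 in control and from 6.69 to 6.92 in knockout. Greb1, picked out after its values were seen, was the 1 marker of the list above the median gene. It read 4.92 in control 3, 7.92 in control 2, and between 9.13 and 10.12 on the other 6 arrays. Control 3 was thus lowest in both Greb1 and Bcat1. None of the other markers listed for ovary or uterus was at its lowest on control 3, so the mean of 5.89 there reflects Greb1 and not that list as a whole. The 6 smooth muscle markers were all higher in knockout in mean, with a mean level of 8.17 to 9.19 in control and 8.73 to 9.06 in knockout. Of these, Myh11 and Cnn1 were also lowest on control 3, at 7.27 and 6.15, and the others on control 2. Arrays of both groups carried markers of male tissues. Spermatid markers averaged 8.66 on control 3 and 9.24 on knockout 9, and epididymis markers 8.75 on knockout 8. The part of the ovary or uterus list or of the smooth muscle list in the Bcat1 difference was not tested.

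Bcat2 (1425764_a_at, chromosome 7, 45568967 to 45589710) read 10.06, 10.01, 9.46 and 9.52 in controls and 9.76, 9.72, 9.97 and 9.64 in knockouts. Its knockout arrays all lay inside the control range, which is set by high values on controls 1 and 2 and low ones on controls 3 and 4. The means were 9.76 ± 0.32 and 9.77 ± 0.14, a difference of 0.01 (interval -0.35 to 0.37; exact permutation p = 0.971). Within the array sets the difference took opposite signs, -0.29 with controls 1 and 2 and 0.32 with controls 3 and 4. The log2 ratio of Bcat1 to Bcat2 on the same array, compared after seeing the values, was -1.91, -2.14, -2.34 and -1.11 in controls and -1.24, -0.67, -1.60 and -0.05 in knockouts. It was higher by 0.98 in knockout and overlapped between groups (exact permutation p = 0.0857, 0.171 adjusted over 4 such ratios).

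Of the E1 and E2 subunits of the complex that commits the carbon to oxidation, Dbt and Bckdhb read lower in mean in knockout and Bckdha slightly higher. Dbt, the E2 core that transfers the acyl group (1449118_at, chromosome 3, 116513070 to 116549981), read 10.29, 10.26, 10.23 and 10.10 in controls and 9.96, 9.97, 10.00 and 10.10 in knockouts. All 4 knockout arrays were below all controls, with control 4 and knockout 10 almost level. Dbt was the 1 member of 10 whose groups did not overlap, against 1.7% of all genes. The means were 10.22 ± 0.08 and 10.01 ± 0.06 (SD, n = 4 each), a ratio of 0.862 (interval 0.771 to 0.963; exact permutation p = 0.0286, the smallest possible; unadjusted limma p = 0.0147, adjusted 0.999). Over the fits that left out an array the difference ran from -0.26 to -0.19. With only controls 1 and 2 and knockouts 6 and 8 it was -0.31, and with only the other 4 arrays -0.12.

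Bckdha, the E1 alpha subunit that Bckdk phosphorylates (1416647_at, chromosome 7, 25629852 to 25658782), read 10.64, 10.62, 10.53 and 10.60 in controls and 10.62, 10.71, 10.70 and 10.69 in knockouts. Its arrays span 0.18 log2 units, and 3 of 4 knockouts lay above the highest control. The difference was 0.08 (interval -0.05 to 0.22; exact permutation p = 0.0571, limma p = 0.202). Its partner in E1, Bckdhb (1427153_at, chromosome 9, 83925111 to 84124240), read 11.97, 12.31, 12.31 and 11.77 in controls and 12.02, 11.93, 12.01 and 11.54 in knockouts. Knockout 10 was lowest and controls 2 and 3 highest, with the groups overlapping. The difference was -0.22 (interval -0.58 to 0.14; exact permutation p = 0.257), -0.11 without knockout 10 and -0.48 without controls 1 and 4 and knockout 9 (limma adjusted p = 0.288; the alternatives reached 1).

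Set against each other on the same array, Dbt was low relative to Bckdha in knockout. The log2 ratio was -0.35, -0.36, -0.31 and -0.50 in controls and -0.67, -0.75, -0.70 and -0.60 in knockouts, with no overlap and a difference of -0.30 (exact permutation p = 0.0286, 0.114 adjusted over the 4 ratios). Dbt against Bckdhb differed by 0.00244 (exact permutation p = 1) and Bckdhb against Bckdha by -0.30 (exact permutation p = 0.229). None of the 4 ratios passed after this adjustment, and they were chosen after the values were seen.

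Bckdk, the kinase that holds the complex inactive (1460644_at, chromosome 7, 127904073 to 127909664), read 9.83, 9.52, 9.34 and 9.37 in controls and 9.39, 9.47, 9.49 and 9.23 in knockouts. Control 1 stood highest and the other arrays of both groups were mixed. The difference was -0.12 (interval -0.39 to 0.15; exact permutation p = 0.429), and -0.02 without control 1. Control 1 also had the highest mean of the 8 liver markers, 11.25 where the other arrays lay between 6.50 and 9.32; 7 of the 8 were lower in knockout. The part of these liver transcripts in the Bckdk value was not tested. A second Bckdk probe set, 1443813_x_at, read 7.27 to 7.52 in controls and 7.09 to 7.63 in knockouts, at a difference of -0.03.

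**Figure D2:**
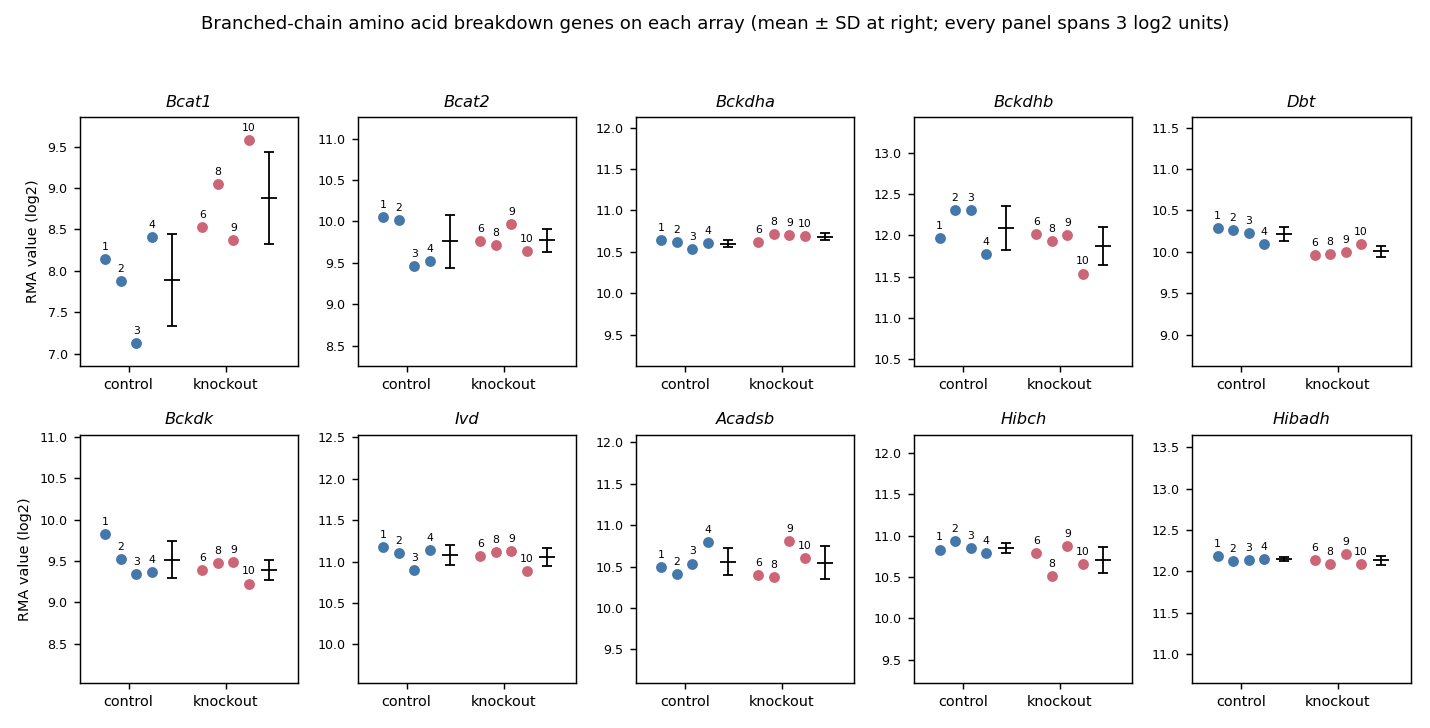
RMA values (log2 scale, y axis) of the 10 members, 1 probe set each, on the 4 control and 4 knockout arrays; points carry replicate numbers, and bars at the right of each group are mean ± SD. Every panel spans 3 log2 units, so that Bcat1 (SD over all arrays 0.74) can be set beside Hibadh (SD 0.04), and in the Dbt panel the knockouts lie at 10.10 or lower.

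The dehydrogenases at the head of the leucine and isoleucine arms lay close together in both groups. Ivd, isovaleryl-CoA dehydrogenase (1418238_at, chromosome 2, 118861959 to 118882909), read 11.18, 11.10, 10.90 and 11.14 in controls and 11.07, 11.11, 11.13 and 10.89 in knockouts. The lowest arrays were control 3 and knockout 10, and the difference of -0.03 (interval -0.23 to 0.17; exact permutation p = 0.543) turned to 0.02 without knockout 10. A dimmer Ivd probe set, 1449001_at, read 9.76, 9.68, 9.38 and 9.22 in controls and 9.42, 9.27, 9.05 and 8.51 in knockouts. It leaned lower by more than the brighter probe set, with the groups overlapping: the difference was -0.45 (interval -0.91 to 0.02; exact permutation p = 0.143). Neither Ivd probe set passed, and the gap between them was not tested.

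Acadsb, the short/branched-chain acyl-CoA dehydrogenase (1455446_x_at, chromosome 7, 131410601 to 131446211), read 10.49, 10.41, 10.54 and 10.80 in controls and 10.40, 10.38, 10.81 and 10.60 in knockouts. Control 4 and knockout 9 were high together. The groups overlapped, with a difference of -0.01 (interval -0.30 to 0.27; exact permutation p = 0.914), which was 0.07 without control 4.

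Of the valine enzymes, Hibch leaned lower and Hibadh hardly varied. Hibch, which frees 3-hydroxyisobutyrate from its CoA ester (1451512_s_at, chromosome 1, 52845038 to 52920986), read 10.83, 10.93, 10.85 and 10.78 in controls and 10.79, 10.51, 10.87 and 10.65 in knockouts. Knockouts 8 and 10 lay below every control, and the other two knockouts inside the control range. The difference was -0.14 (interval -0.35 to 0.06; exact permutation p = 0.20), and -0.08 without knockout 8; the dimmer probe set 1451511_at gave -0.25 (interval -0.65 to 0.14), again with knockout 8 lowest, at 7.60.

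Hibadh, the dehydrogenase that oxidises 3-hydroxyisobutyrate (1435967_s_at, chromosome 6, 52546230 to 52640300), read 12.19, 12.12, 12.14 and 12.15 in controls and 12.13, 12.09, 12.21 and 12.09 in knockouts. Its 8 arrays lay within 0.12 log2 units, and 0.715% of all genes had an SD as small or smaller. The ratio of knockout to control was 0.988 (interval 0.898 to 1.09; exact permutation p = 0.571), and the other probe set, 1423780_at, differed by -0.07 (interval -0.24 to 0.09).

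**Figure D3:**
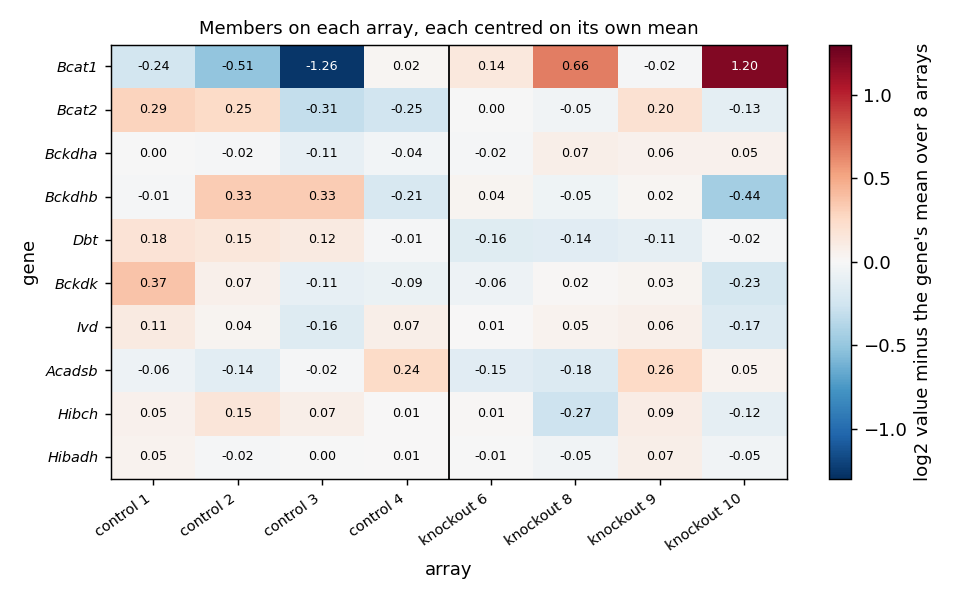
Value of each member on each array minus that member's mean over the 8 arrays (log2 scale, colour and printed number), with controls left and knockouts right of the line. Bcat1 runs from -1.26 in control 3 to 1.20 in knockout 10, and the lowest Dbt control, control 4 at -0.0136, lies just above the highest knockout, knockout 10 at -0.0171.

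The members did not share an order of the arrays. The SD over 8 arrays ran from 0.04 for Hibadh and 0.06 for Bckdha through 0.11 for Ivd, 0.13 for Dbt, 0.14 for Hibch, 0.17 for Acadsb, 0.18 for Bckdk, 0.23 for Bcat2 and 0.26 for Bckdhb to 0.74 for Bcat1. Control 3 was lowest for Bcat1, Bcat2 and Bckdha but among the highest for Bckdhb, and knockout 10 was highest for Bcat1 but lowest for Bckdhb, Bckdk and Ivd. Averaged over the 10 centred members, the arrays lay within a narrow band, from -0.15 in control 3 to 0.07 in control 1. The low end was set by Bcat1: averaged over the 9 members without it, a profile added after seeing the data, control 3 lay at -0.02, and the arrays ran from -0.12 in knockout 10 to 0.11 in control 1. Of the 10 members 8 were lower in the knockouts of the array set that includes controls 1 and 2, where 55% of all genes were. In the other set 4 were lower, where 46.6% of all genes were. The genes nearest to the profile over all 10 members, by the root mean square difference of centred log2 values over the 8 arrays among 8372 genes above the median level and at least as variable, were Cnot9 (0.0263), Pccb (0.0274) and Med4 (0.0327). Pccb, a subunit of the propionyl-CoA carboxylase that receives the isoleucine and valine carbon, is itself in the pathway. Without Bcat1 the nearest, of 7855, were Ipo5 (0.0169), Eif2ak1 (0.0219) and Ebpl (0.0281), so none of the 3 genes named for all 10 members was among them.

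The genes nearest to Bcat2 by the same measure, among 2321, were Fbxl4 (0.0567), Actl6a (0.0668) and Nlrx1 (0.0761). Like Bcat2, all 3 read higher on controls 1 and 2 than on controls 3 and 4: Fbxl4 read 10.29 and 10.36 against 9.70 and 9.81. For Bcat1, a profile added after its values were seen, the nearest of 207 were Itm2a (0.325), Slc15a2 (0.358) and Enah (0.363). These distances were wider than for Bcat2, where the profile varied less (SD 0.23 against 0.74) and more genes were compared. All 3 genes shared the low value of Bcat1 on control 3, with Itm2a at 7.26 there and between 8.49 and 9.73 on the others. Genes picked for nearness to a profile share its main features by that choice, here and for Bcat2.

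The rest of the pathway gave no call either. Of 27 other measured genes, 10 were higher and 17 lower in knockout (median -0.05), 0 passed over all genes, and 1 had an unadjusted limma p under 0.05, where 2.56% of all genes did.

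Of 6 carriers that bring the amino acids to the enzymes 4 read higher in mean (median 0.15) and none passed the test over all genes. The other two, Slc43a1 at -0.20 (interval -0.68 to 0.28) and Slc25a44 at -0.11 (interval -0.39 to 0.16), read lower. Slc3a2, the heavy chain of the large neutral amino acid exchanger, read 11.09, 11.01, 11.18 and 10.93 in controls and 11.38, 11.22, 11.33 and 11.17 in knockouts. Knockout 10 lay just under control 3 and the other knockouts above all controls, at a difference of 0.22 (interval 0.04 to 0.41; limma p = 0.0239, adjusted 0.999; exact permutation p = 0.0571). Its light chain Slc7a5, which carries leucine, read 8.10, 7.10, 6.79 and 8.57 in controls and 8.18, 8.39, 8.38 and 8.21 in knockouts. Controls 2 and 3 were low while controls 1 and 4 lay near the knockouts, at a difference of 0.65 (interval -0.18 to 1.48; exact permutation p = 0.286). Without controls 1 and 4 and knockout 9, chosen after seeing the data, Slc7a5 was the sole pathway gene to pass, at 1.31 (limma adjusted p = 0.0404, between 0.552 and 1 in the other fits). In that fit 155 of all 18193 genes passed, where 0 did in the main one. The kept controls averaged 6.94 for Slc7a5, the left-out ones 8.34, and the kept knockouts 8.26.

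Most enzymes below the complex read slightly lower in mean over all arrays, but not within both array sets. The complex's E3 Dld (-0.15, interval -0.50 to 0.21) and the phosphatase Ppm1k, which reverses Bckdk (-0.14, interval -0.61 to 0.34), had intervals that include 0. All 3 measured genes of the leucine arm were lower (median -0.12), among them Mccc2, a subunit of methylcrotonoyl-CoA carboxylase, at -0.21 (interval -0.48 to 0.07) and the hydratase Auh at -0.11. Of 6 genes of the isoleucine and valine arms 4 were lower (median -0.03), with the isobutyryl-CoA dehydrogenase Acad8 at -0.14 and the hydratase Echs1 at -0.16. Of 6 genes of the propionate arm 5 were lower (median -0.07), with the carboxylase subunit Pcca and the cobalamin protein Mmaa each at -0.10. Control 1, highest in liver markers, was also the highest array for Mccc2, Auh, Acad8, Echs1, Pcca and Mmaa. Control 2 was the next highest for each of these, with a liver marker mean of 8.60, against 9.32 on knockout 6. Control 1 or control 2 was highest for 14 of the 27 other pathway genes, and for 29.3% of all genes. The part of liver transcripts in these differences was not tested. In the array set that includes controls 1 and 2, 19 of the 27 other pathway genes were lower (median -0.16), where 55% of all genes were. In the set with controls 3 and 4 there were 5 (median 0.07), where 46.6% of all genes were lower.

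Of 4 regulators 3 were higher (median 0.07). Ppargc1a, a coactivator of mitochondrial genes, read 7.49, 7.22, 5.80 and 7.08 in controls and 7.78, 7.83, 7.09 and 7.29 in knockouts, again lowest on control 3, at a difference of 0.60 (interval -0.22 to 1.42). Klf15, a transcription factor known to drive branched-chain amino acid genes in muscle, differed by 0.08 (interval -0.24 to 0.40).

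The neighbouring mitochondrial pathways read slightly lower in mean over all arrays, and this turned between the array sets. Of 21 genes of pyruvate entry and the citric acid cycle 18 were lower (median -0.08) and of 18 genes of fatty acid oxidation 14 (median -0.07), against 7 of 10 members (median -0.02) and 53.3% of all genes. In both lists 0 genes passed over all genes, and 0 had an unadjusted limma p under 0.05, where 2.56% of all genes did. Control 1 or control 2 was the highest array for 38 of these 39 genes, and for 29.3% of all genes. Within the set that holds controls 1 and 2, all 39 were lower (median -0.23; 55% of all genes were lower there), and 19 had an unadjusted limma p under 0.05, as did 7.02% of all genes. Within the other set 5 of 39 were lower (median 0.07; 46.6% of all genes were lower there), and 0 had such a p, where 1.34% of all genes did. The part of the liver markers, highest on control 1, in these lists was not tested.

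**Figure D4:**
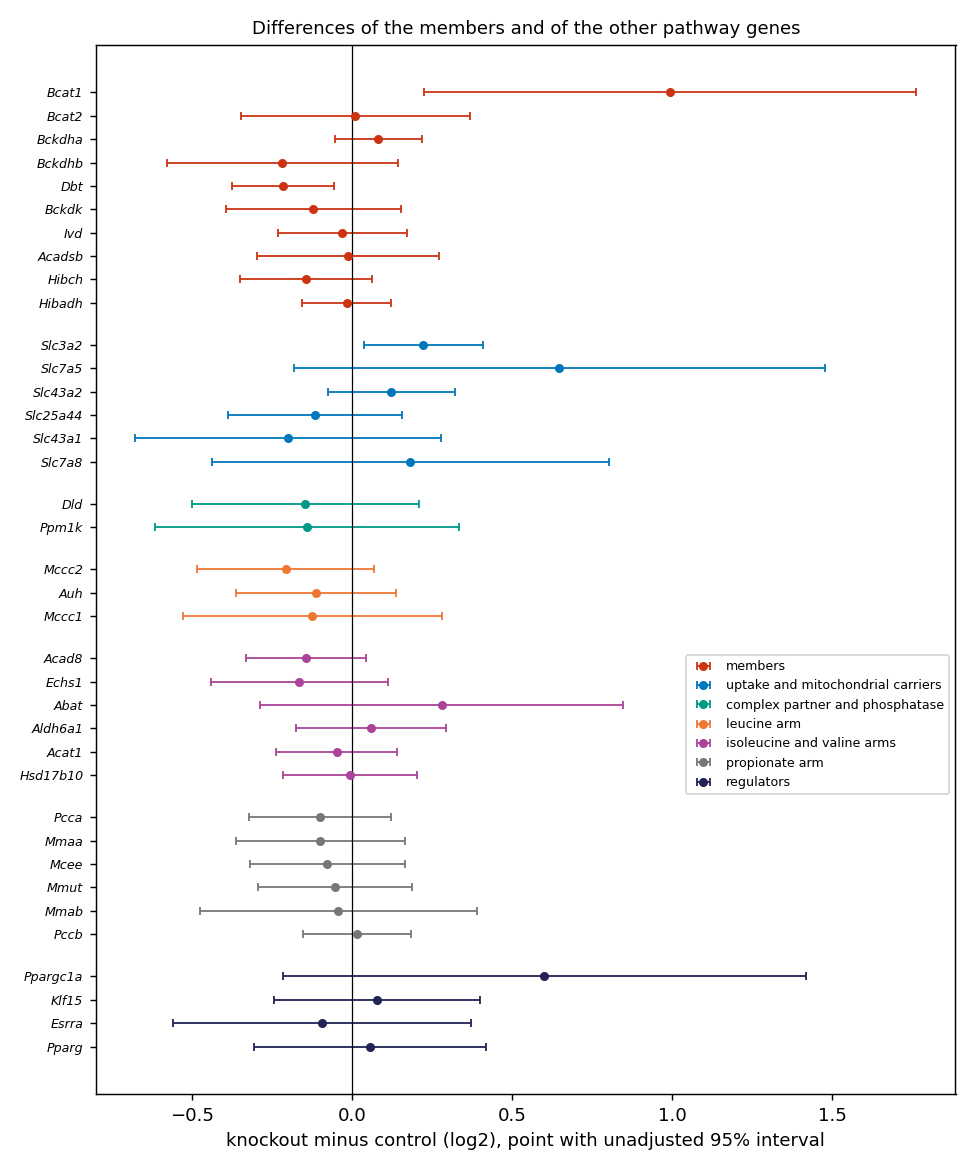
Difference between knockout and control (log2 scale, x axis) with unadjusted 95% intervals from limma for the 10 members and the 27 other measured genes of the pathway, coloured by list. Intervals of Bcat1 (0.22 to 1.76), Dbt (-0.38 to -0.05) and Slc3a2 (0.04 to 0.41) do not reach 0; all others do, and none passed after adjustment over all genes.

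Array medians ran from 6.44 to 6.52. Pex5 (1426770_at) read 9.52, 9.58, 9.34 and 9.06 in controls and 9.50, 9.27, 9.38 and 9.30 in knockouts. The groups overlapped, at a difference of -0.01 (interval -0.29 to 0.27); which exons were deleted is not in the labels, so this does not check the genotypes. The mean of the 7 measured adipocyte markers was 13.23 to 13.64 in control and 13.48 to 13.68 in knockout, and all 7 lay above the median gene. Some arrays also carried markers of other organs: 8 liver markers averaged 11.25 on control 1, 5 epididymis markers 8.75 on knockout 8, and 5 spermatid markers 8.66 on control 3 and 9.24 on knockout 9. Liver signal remained in the other arrays, with a mean of 9.32 on knockout 6 and 8.60 on control 2. Without those 4 arrays, a choice made after seeing the data that leaves 2 per group, Bcat1 differed by 0.91 and Dbt by -0.15, and 0 members passed (limma adjusted p = 0.9999 for each). Macrophage markers averaged 9.60 to 10.28 in control and 9.30 to 9.79 in knockout, with 6 of 8 lower.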

How the data were processed

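Gonadal fat RNA from 8 samples was read on 1 array each. Extraction was by Trizol, per the labels' protocols. The authors made the deposited log2 values with RMA (background correction, normalisation across arrays and summary of each probe set's probes), per the submitters' processing notes; its version was not given there. RMA may compress changes of dim genes, and the table holds no detection calls.

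Of 45101 probe sets, 64 Affymetrix controls entered no test; 34945 of the rest had 1 gene symbol in the 2016 platform annotation, 932 several and 9160 none. Each of 18193 genes was represented by its brightest probe set. Groups were compared by lmFit and eBayes (limma 3.58.1, R 4.3.3) without covariates, and p-values adjusted over all genes by Benjamini-Hochberg, called under 0.05; exact permutation tests used scipy 1.17.1 and figures matplotlib 3.10.9. Named were all members, Pex5, up to 2 genes per pathway list by limma p, and the 3 genes nearest to a profile; Greb1, Slc43a1, Slc25a44, the Bcat1 profile and that of 9 members were chosen after their values were seen. The members and lists were chosen with earlier results of these data known. Loci are from RefSeq on GRCm38.p6. The limma step was tested on simulated data with noise drawn independently for each gene and array. It called 25 of 50 genes changed 1.5-fold and 43 of 50 changed 2-fold, with 3 false calls. The same simulated data also held 50 genes changed 3-fold and 50 changed 4-fold, and many changed genes ease the adjustment. In the real data 0 of 18193 genes passed, so these counts do not tell how often a single changed gene would be called here. Differences that arrays share over many genes, as between the array sets, were not simulated, so the test does not cover them. The number of arrays limits the precision. Alternatives were other variance models, filters, normalisations, probe set rules, weights, covariates and left-out arrays.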

Additional observations from a re-analysis of the deposited data

How the results depend on the processing

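No member passed under any of the alternatives run, with adjusted p from 0.123 to 1 over all members and settings. The direction held in all 24 alternatives for Bcat1, 23 for Hibch and 22 each for Dbt, Bckdha and Bckdhb. It held in 14 of 22 for Bcat2, 17 of 22 for Acadsb, 20 of 23 for Ivd and 22 of 23 each for Bckdk and Hibadh, whose differences were small. Some of these alternatives could not change a direction. The variance models, the plain test, the filter of dim genes, the array sets as a block and a threshold of 0.10 left each member's difference as it was. For members with 1 probe set, averaging probe sets did so too. The members' median of -0.02 was -0.11 within the set of controls 1 and 2 with knockouts 6 and 8, 0.00503 within the other set, -0.07 with array weights, -0.06 with probe sets averaged per gene, -0.05 with array medians subtracted, -0.00283 with the RNA quality covariate, -0.12 without the 4 arrays with markers of other organs, and, with an array left out in turn, ranged from -0.089 (control 3 out) to -0.010 (control 1 out); the cause was not tested. Without controls 1 and 4 and knockout 9, chosen after seeing the data, 155 of 18193 genes passed in place of 0. Of the other pathway genes 1 passed, Slc7a5, in place of 0. The cause was not tested. With the 2 array sets as a block 0 members passed, and Bcat1 and Dbt each had a limma adjusted p of 0.932. No paired analysis was possible because the control and knockout arrays share no replicate number and the sets do not tie single arrays to each other.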
